A study of Mus musculus with 48 samples.

Results

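The comparison described here set RNA-seq libraries of mouse kidney from the middle of the light phase against libraries from the middle of the dark phase. The midday window held the pools of ZT04, ZT06 and ZT08 and the midnight window those of ZT16, ZT18 and ZT20, where zeitgeber time (ZT) counts the hours from lights-on. With 2 replicate pools at each time this gave 6 midday and 6 midnight libraries, 12 of the 24 RNA-seq libraries and of the 48 libraries in all. The other 24 libraries hold ribosome footprints, the mRNA pieces shielded by ribosomes, of the same pools. All animals were male C57BL/6JRj mice aged between 11 and 12 weeks by the sample labels, which had lived for 2 weeks in 12 h of light and 12 h of darkness with food and water always available. Every pool combined the kidneys of 2 mice, and no genotype or drug separated the groups, so the time of collection was the sole designed difference between them. A pool is an average over 2 animals and over all cell types of the organ. The p-values below rest on the spread between such pools within a window, which includes changes between its time points. The 2 pools of a time point were counted as separate samples although they share its time, so small p-values can overstate the evidence. In whole organs, fewer cells of a type and less RNA per cell cannot be told apart.

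The deposited values are read densities over the coding sequence scaled to sequencing depth and gene length (RPKM), already scaled by the authors to nearly equal upper quartiles. Of 12423 genes present in both assays, 11863 had a median of at least 0.5 RPKM in each and were tested. A difference is the mean log2(RPKM + 0.1) at midday minus that at midnight, so that positive values are higher at midday, and a gene was called at a false discovery rate (FDR) under 0.05. On this scale the changes of genes near the pseudocount of 0.1 are understated. The steps between low values showed how many reads lay behind a value, with 1 RPKM standing for 14.96 to 26.5 reads per kilobase in the midday libraries and for 9.86 to 19.2 in the midnight libraries. Midday libraries were thus deeper, 1.47-fold on average (log2 difference 0.56, exact permutation test over the 12 libraries, two-sided, p = 0.0195). Correlations between the 12 libraries over genes ran from 0.977 to 0.994.

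A property of the sequences moved with the windows, and its part in single differences was not tested. The log2 difference rose with the GC content of a gene's coding sequence, with a Spearman coefficient of 0.495 across the 11787 genes that had a GC value, whereas the footprints of the same pools gave 0.017. Genes are not independent of each other, so both coefficients only describe the pattern and carry no p. In the tenth of genes lowest in GC content (up to 44.4%) the median log2 difference was -0.22, and in the tenth highest (from 60.2%) it was 0.22. Each library was also taken as its deviation from every gene's mean over the 12 libraries. In these deviations 5 of the 6 libraries from midday leaned towards GC-rich genes, with Spearman coefficients of 0.40 to 0.66. The 6 from midnight leaned away from them, with -0.12 to -0.56. These coefficients are relative, since a lean in one window by itself brings the opposite lean in the other. The ZT04 replicate 2 library stood apart from the other midday libraries with -0.46. For this reason call counts are also given below after the smooth trend on GC content was taken out of every library.

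**Figure D1:**
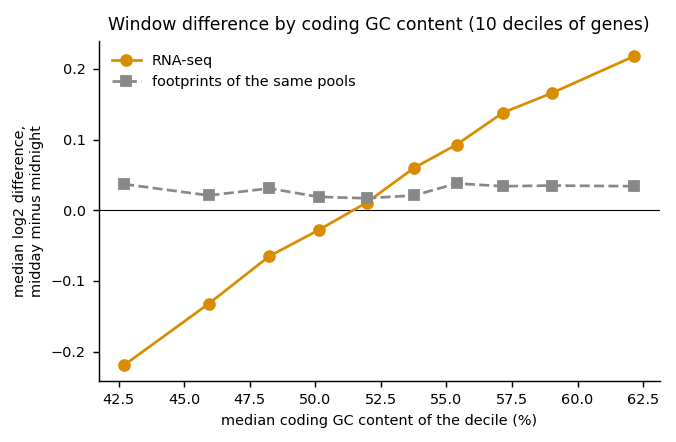
Median log2 difference between midday and midnight (y axis) in 10 deciles of genes ordered by coding GC content (x axis, median GC of the decile in percent), for RNA-seq (circles) and for the footprints of the same pools (squares). The RNA-seq medians climb from -0.22 to 0.22, while the footprint medians stay between 0.02 and 0.04.

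At this FDR 2289 genes were higher at midday (19.3% of those tested) and 1804 at midnight (15.2%). The counts for gene lists and markers given below are to be read against these shares. Most differences were small, with median folds of 1.29 and 1.25 among the called genes. A change of at least 1.5-fold was seen in 355 genes higher at midday (2.99%) and 163 higher at midnight (1.37%), and a change of at least 2-fold in 49 and 21. The split depended on the scaling, since quantile normalisation gave 236 and 218 genes in place of 355 and 163, and median centring of the libraries gave 309 and 195, and removal of the GC trend 203 and 153. All 6 values of one window lay above all 6 of the other in 987 genes higher at midday (8.32%) and 585 higher at midnight (4.93%). Without the ZT04 replicate 2 library 2628 and 2230 genes were called. Taking out the GC trend left 1600 genes higher at midday (13.6% of 11787) and 1886 higher at midnight (16%), and none of the called genes with a GC value was then called in the other direction. With relative depth as a covariate 1398 and 1046 genes were called. Averaging the 2 pools of each time point first left 1238 and 837, and time points as a random block 1580 and 1250. After removal of the GC trend, 319 of 352 midday genes and 150 of 161 midnight genes at least 1.5-fold apart were still called. Of all called genes, 1279 of 2274 and 1194 of 1793 were.

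The mammalian clock is a feedback loop of transcription. BMAL1 (encoded by Arntl) pairs with CLOCK or NPAS2 and switches on genes with E-box sequences, among them the Per and Cry genes, whose proteins then block that pair. In a second loop the nuclear receptors REV-ERB (Nr1d1, Nr1d2) repress Arntl, and the PAR bZIP factors DBP, TEF and HLF with their rival NFIL3 carry the rhythm to output genes. In the kidney this clock is known to set daily cycles of filtration and of salt and water excretion.

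Arntl and Clock, which act as activators of the loop, were both higher at midnight. Arntl spanned 0.961 to 11.3 RPKM (median 4.64) at midday and 9.89 to 20.8 RPKM (median 12.1) at midnight (log2 difference -1.71 ± 0.43, FDR = 0.00691). These windows overlapped, and within the midday window the mean was 9.77 RPKM at ZT04 and 1.60 at ZT08. Clock, the DNA-binding partner of BMAL1, had 18.1 to 24.3 RPKM (median 19.9) at midday and 23.5 to 33.6 RPKM (median 26.2) at midnight, with overlap and a difference of 1.32-fold (log2 difference -0.40 ± 0.09, FDR = 0.00426). Npas2, the alternative partner, was not called (log2 difference -0.32 ± 0.44, FDR = 0.608), although it was far higher at dawn (10.2 RPKM over ZT22, ZT00 and ZT02) than at dusk (0.431 RPKM over ZT10, ZT12 and ZT14). Rora, a nuclear receptor that activates Arntl, had 27.4 to 33.8 RPKM (median 30.4) at midday and 25.02 to 34.0 RPKM (median 27.7) at midnight and was not called either (log2 difference 0.12 ± 0.08, FDR = 0.257).

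The 10 genes of the repressing arm went both ways, with 3 higher at midday and 2 at midnight, or 2 and 3 with the GC trend removed. Nr1d1, the gene of REV-ERB alpha (chr11:98767932-98775333, minus strand), showed the widest difference of all genes tested. It ran from 32.8 to 60.1 RPKM (median 49.1) at midday and from 1.31 to 6.52 RPKM (median 2.19) at midnight, so the lowest midday library exceeded the highest midnight one by a wide margin. The difference was 16.2-fold (log2 difference 4.02 ± 0.32, FDR = 1.26e-06), and even the lowest midnight value rested on 25 reads. Nr1d2, its close relative, had 43.7 to 76.9 RPKM (median 58.9) at midday and 16.9 to 50.9 RPKM (median 33.1) at midnight (log2 difference 0.95 ± 0.22, FDR = 0.00389), with overlapping windows. Cry1, whose protein blocks BMAL1 and CLOCK (chr10:85131700-85185064, minus strand), was the gene most raised at midnight, with 1.54 to 3.67 RPKM (median 2.08) at midday, 13.5 to 16.8 RPKM (median 14.9) at midnight and a difference of 6.47-fold (log2 difference -2.69 ± 0.15, FDR = 8.82e-08). Its windows were separate by a wide margin. Per2, another repressor of the same complex, had 1.84 to 10.5 RPKM (median 3.87) at midday and 10.7 to 19.4 RPKM (median 15.0) at midnight (log2 difference -1.66 ± 0.32, FDR = 0.00131). Here the windows just failed to touch.

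Ciart, a small repressor of BMAL1 and CLOCK also known as Chrono, had 0.679 to 10.5 RPKM (median 2.50) at midday and 0.204 to 1.71 RPKM (median 0.731) at midnight (log2 difference 1.66 ± 0.58, FDR = 0.0351). Its call was fragile. It was lost without any 1 of 6 libraries (among them ZT08 replicate 2, 1.26) and without the pools of ZT06 (1.71), ZT08 (0.84), ZT18 (1.47) or ZT20 (1.52), and it was also lost with the GC trend removed (1.59). The other members were not called. Per1 had medians of 3.97 and 4.78 RPKM and Per3 of 6.10 and 6.16 RPKM, both period genes that stood highest around dusk, at means of 11.6 and 13.4 RPKM. Cry2 (log2 difference -0.24 ± 0.13, FDR = 0.162) was called as higher at midnight only with the GC trend removed (-0.42). Bhlhe40 (log2 difference -0.21 ± 0.16, FDR = 0.321) and Bhlhe41 (log2 difference 0.45 ± 0.31, FDR = 0.279), which bind E-boxes as repressors, did not pass the test.

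The promoters of Ciart and Cry1 are printed because they hold the E-box of the loop in the repressing genes that moved. The E-box was searched as CACGTG, which reads the same on both strands, in RefSeq promoter windows of 300 bases around each start (GRCm38.p6). It was found in 7.15% of all 32851 windows and 11.9% of tested genes with a window, and in 4 of the 8 repressing-arm genes with a window. The stretches run from 180 bases before the start to 25 bases after it on the gene's own strand, with the E-boxes in capitals. Ciart (chr3:95882204-95882408, minus strand) holds 3 of them and Cry1 (chr10:85185030-85185234, minus strand) holds 1. A match is a description of the letters, not of a bound site.
Ciart: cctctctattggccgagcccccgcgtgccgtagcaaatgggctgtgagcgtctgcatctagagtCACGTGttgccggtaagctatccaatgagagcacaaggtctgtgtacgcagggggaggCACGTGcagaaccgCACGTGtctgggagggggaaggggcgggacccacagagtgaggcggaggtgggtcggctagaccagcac
Cry1: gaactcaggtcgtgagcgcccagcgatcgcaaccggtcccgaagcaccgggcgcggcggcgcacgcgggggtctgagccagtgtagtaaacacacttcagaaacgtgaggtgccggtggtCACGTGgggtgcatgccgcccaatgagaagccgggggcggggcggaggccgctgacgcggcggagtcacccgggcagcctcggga

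**Figure D2:**
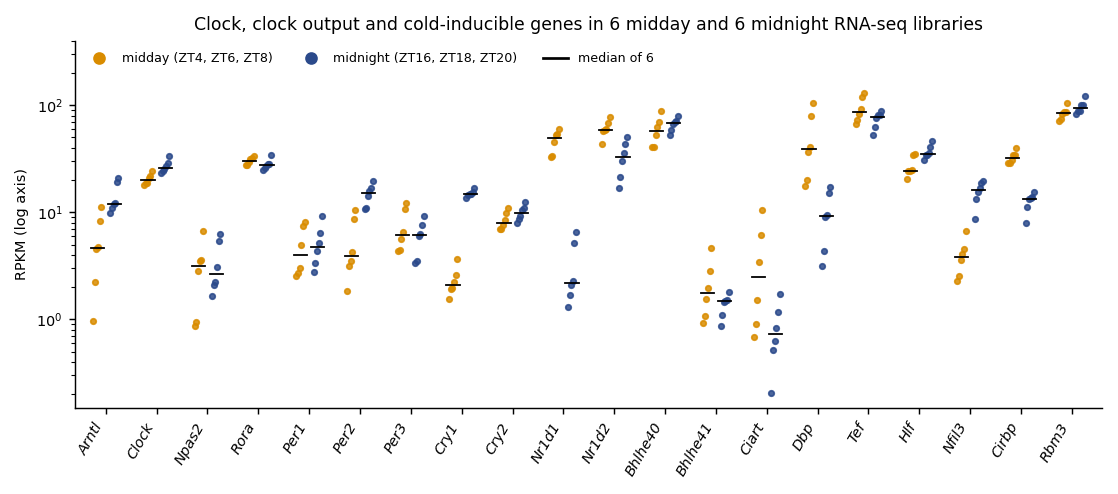
RPKM (y axis, log scale) of 20 clock, clock output and cold-inducible genes in each of the 6 midday (orange) and 6 midnight (blue) RNA-seq libraries, with black bars at the medians. Per2, Cry1, Nr1d1, Dbp, Nfil3 and Cirbp have windows that do not overlap, while Per1, Per3 and Bhlhe41 have intermingled points.

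Among the 4 output factors, 1 was higher at midday and 2 at midnight, with or without the GC trend. Dbp, the PAR bZIP activator (chr7:45705088-45710203, plus strand), had 17.5 to 106 RPKM (median 38.9) at midday and 3.12 to 17.3 RPKM (median 9.28) at midnight. The lowest midday value was only just above the highest midnight value, yet the difference was 4.88-fold (log2 difference 2.29 ± 0.46, FDR = 0.00159). Within the midday window the mean was 18.8 RPKM at ZT04 and 92.7 at ZT08. Nfil3, the repressor that competes for the same sites, moved the opposite way, with 2.27 to 6.76 RPKM (median 3.81) at midday and 8.68 to 19.5 RPKM (median 16.2) at midnight, without overlap (log2 difference -1.99 ± 0.24, FDR = 4.12e-05). Hlf, a second PAR bZIP factor, had 20.3 to 35.1 RPKM (median 24.5) at midday and 30.9 to 46.8 RPKM (median 35.1) at midnight (log2 difference -0.47 ± 0.13, FDR = 0.0119), and its call was lost without the pools of ZT04 (-0.34), ZT06 (-0.40) or ZT16 (-0.35). In the footprints of the same pools Hlf was not called (log2 difference -0.04 ± 0.11, FDR = 0.858). Tef, the third, was not called (log2 difference 0.33 ± 0.16, FDR = 0.125) and was higher around dusk, at 127 RPKM, than at dawn, at 48.1 RPKM. Of the 10 genes for the turnover of clock proteins 2 were higher at midday and 1 at midnight (3 and 1 with the GC trend removed). Btrc, a subunit of the ubiquitin ligase that marks PER proteins, was among those higher at midday (log2 difference 0.40 ± 0.08, FDR = 0.00172).

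Cirbp, an RNA-binding protein induced by mild cold (chr10:80165985-80172786, plus strand), had 28.9 to 39.7 RPKM (median 32.4) at midday and 7.91 to 15.5 RPKM (median 13.4) at midnight. The 2 windows were separate and the level was 2.64-fold higher at midday (log2 difference 1.40 ± 0.13, FDR = 7.63e-06). Rbm3, the other classical cold-inducible RNA-binding protein, had 71.1 to 105 RPKM (median 84.4) and 82.7 to 121 RPKM (median 94.7) and was not called (log2 difference -0.20 ± 0.10, FDR = 0.126). Of the 57 genes of the SR, hnRNP and RBM families 12 were higher at midday and 10 at midnight, and 10 and 9 with the GC trend removed. Before that removal the counts were near the shares over all genes tested, 19.3% at midday and 15.2% at midnight. Hnrnpd, also known as AUF1 and a regulator of mRNA decay, was the member that differed most (log2 difference 0.97 ± 0.10, FDR = 1.71e-05). Srsf10, a splicing regulator, was higher at midnight (log2 difference -0.48 ± 0.08, FDR = 0.000315) and Srsf4 at midday (log2 difference 0.44 ± 0.09, FDR = 0.00139).

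Most genes of the heat shock list were higher at midnight. Heat shock proteins fold other proteins and are switched on by heat shock factor 1, which binds heat shock elements. The list holds mainly cytosolic chaperones, together with the mitochondrial Hspd1 and Hspe1 and the factor Hsf1 itself. All 22 genes were tested, and 18 were higher at midnight, none at midday and 4 not called, with the midnight mean above the midday mean in all 22. Over all genes tested 15.2% were higher at midnight. The median log2 difference of the list was -0.59, against 0.02 over all genes tested. Windows did not overlap in 11 members, while 4.93% of all genes tested were higher at midnight without overlap. Removing the GC trend again gave 0 and 18 (median -0.54), quantile normalisation 0 and 16, and leaving out ZT04 replicate 2 gave 0 and 15. The members differed after the first of these steps, as Dnaja2 and Hspa4 lost the call and Hspa1b and Hsf1 gained it. With time points as a random block the counts were 0 and 13, and with 1 replicate series left out 0 and 7 or 0 and 9. In the footprints of the same pools, where 7.31% of all genes were higher at midday and 6.12% at midnight, 15 members were higher at midnight and none at midday. The summed level of the list ran from 3379.5 to 4206 RPKM at midday and from 4614 to 5980.5 RPKM at midnight.

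Dnajb4, a co-chaperone of HSP70, ran from 15.96 to 23.1 RPKM (median 19.5) at midday and from 34.4 to 50.8 RPKM (median 39.1) at midnight, without overlap (log2 difference -1.07 ± 0.11, FDR = 9.8e-06). Chordc1, a partner of HSP90 (chr9:18292125-18317442, plus strand), behaved alike with 31.0 to 40.4 RPKM (median 35.5) and 64.97 to 77.9 RPKM (median 70.0) (log2 difference -0.99 ± 0.08, FDR = 1.26e-06). Hsp90aa1, the inducible HSP90, had 235 to 383 RPKM (median 363) at midday and 466 to 677 RPKM (median 595) at midnight (log2 difference -0.85 ± 0.13, FDR = 0.000188). Each of these 3 genes had separate windows. Hspa1a, the inducible HSP70, was called narrowly (log2 difference -0.83 ± 0.30, FDR = 0.0450) and lost its call without any 1 of 8 libraries or without the pools of ZT04, ZT06, ZT08 or ZT16, the value being -0.26 without ZT16. It has a near-identical neighbour in Hspa1b, so reads of the pair may have been split between them and both are uncertain. The members not called were Hspa1b, Hspd1 and Cct2, an HSP70, the mitochondrial HSP60 and a chaperonin subunit, and Hsf1, the heat shock factor itself.

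The endoplasmic reticulum list, which holds mainly chaperones and other targets of the unfolded protein response, showed the same side. Of 19 genes, all tested, 14 were higher at midnight, none at midday and 5 not called (median log2 difference -0.43). Over all genes tested 15.2% were higher at midnight. The midnight mean was above the midday mean in all 19. Not called were Pdia3, P4hb and Dnajb9, with Xbp1 and Ddit3, which are transcription factors and not chaperones. Removing the GC trend gave 0 and 15, quantile normalisation 0 and 13, and leaving out ZT04 replicate 2 gave 0 and 15, while footprints gave 0 and 11. With 1 replicate series left out the counts were 0 and 7 or 0 and 9. Hspa5, the HSP70 of this compartment, also called BiP (chr2:34771970-34777547, plus strand), had 232 to 491 RPKM (median 318) at midday and 616 to 791 RPKM (median 705) at midnight. No midday library reached the lowest midnight library, and the difference was 2.19-fold (log2 difference -1.13 ± 0.13, FDR = 3.54e-05). Manf, a secreted stress factor of the same compartment, had 64.3 to 115 RPKM (median 73.3) and 139 to 235 RPKM (median 180.3), again without overlap (log2 difference -1.16 ± 0.14, FDR = 5.69e-05). Creld2, which is induced by endoplasmic reticulum stress, had 31.0 to 69.4 RPKM (median 43.2) and 63.8 to 113 RPKM (median 92.9), with windows that overlapped (log2 difference -1.03 ± 0.17, FDR = 0.000404). Sdf2l1, a partner of Hspa5, had separate windows of 11.9 to 27.6 RPKM (median 17.8) and 31.0 to 40.1 RPKM (median 38.1) (log2 difference -1.01 ± 0.15, FDR = 0.000207). Derl3, a factor for the disposal of misfolded proteins, is a gene outside the list and not part of its counts. It was lower in level, at 0.486 to 1.27 RPKM (median 0.682) and 1.35 to 2.67 RPKM (median 2.03), and also higher at midnight without overlap (log2 difference -1.32 ± 0.24, FDR = 0.000779).

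**Figure D3:**
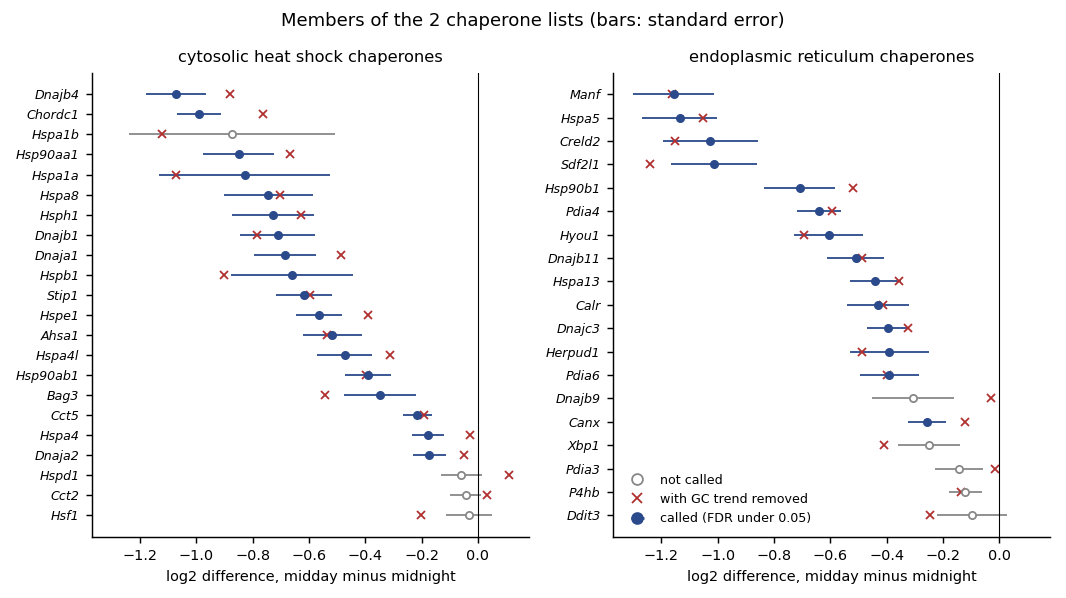
Log2 difference between midday and midnight (x axis) for each member of the heat shock and endoplasmic reticulum chaperone lists (y axis), with bars for the standard error, filled points for called genes and crosses for the value after the GC trend was removed. All points lie below 0, from -1.16 for Manf to -0.03 for Hsf1, and with the GC trend removed Hspd1 and Cct2 move just above 0.

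Promoter stretches of 4 chaperone genes are shown with the elements known for these responses, as the lists moved together. The heat shock element was searched as GAANNTTC or TTCNNGAA, each its own reverse complement, where adjoining matches may overlap. It was found in 15.1% of all promoter windows and 14.3% of tested genes with a window, and in 12 of the 18 genes of the heat shock list with a window, but in 0 of 16 for the endoplasmic reticulum. The endoplasmic reticulum stress element was searched as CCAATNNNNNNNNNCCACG on both strands. It was found in 0.119% of all windows and 0.161% of tested genes, in 7 of the 16 genes of the endoplasmic reticulum list with a window, and in 0 of 18 of the heat shock list. Capitals mark the heat shock element in Chordc1 (chr9:18292087-18292291, plus strand) and Hsph1 (chr5:149636312-149636516, minus strand) and the stress element in Hspa5 (chr2:34771910-34772114, plus strand) and Creld2 (chr15:88819466-88819670, plus strand). In Creld2 it lies on the opposite strand.
Chordc1: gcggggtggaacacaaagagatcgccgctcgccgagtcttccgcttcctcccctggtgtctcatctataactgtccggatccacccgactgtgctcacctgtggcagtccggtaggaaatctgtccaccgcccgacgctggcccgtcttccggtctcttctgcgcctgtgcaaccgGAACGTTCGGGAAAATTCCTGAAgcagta
Hsph1: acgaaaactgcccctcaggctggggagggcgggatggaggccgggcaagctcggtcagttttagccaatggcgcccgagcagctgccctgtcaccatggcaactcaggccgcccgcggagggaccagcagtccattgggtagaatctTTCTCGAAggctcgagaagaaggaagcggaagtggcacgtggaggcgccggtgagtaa
Hspa5: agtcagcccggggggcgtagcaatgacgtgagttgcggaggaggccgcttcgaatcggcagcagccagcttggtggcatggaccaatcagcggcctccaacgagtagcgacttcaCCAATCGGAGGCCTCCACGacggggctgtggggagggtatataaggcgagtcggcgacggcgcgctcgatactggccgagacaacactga
Creld2: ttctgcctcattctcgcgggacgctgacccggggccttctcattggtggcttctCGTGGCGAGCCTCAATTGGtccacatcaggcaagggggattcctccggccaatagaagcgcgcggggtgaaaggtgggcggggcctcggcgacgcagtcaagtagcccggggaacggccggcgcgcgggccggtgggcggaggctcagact

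Of the 40 gene lists, insulin and FOXO signalling had the largest share of members higher at midday. Over all genes tested that share was 19.3%. FOXO factors are held out of the nucleus by insulin and become active in fasting, which for mice falls in the light phase. Of 35 tested genes 18 were higher at midday and 1 at midnight (median log2 difference 0.23), with 18 and 1 after quantile normalisation but 12 and 2 after removal of the GC trend and 8 and 3 in the footprints. Relative depth as a covariate left 9 and 1, time points as a random block 12 and 1, and the loss of 1 replicate series 5 and 0 or 11 and 0. Igfbp1, a binding protein of insulin-like growth factors and a FOXO target (chr11:7197782-7202546, plus strand), ranged over 9.21 to 19.9 RPKM (median 15.4) at midday and 1.86 to 3.18 RPKM (median 2.75) at midnight. The lowest midday library stood well above the highest midnight one, the difference was 5.75-fold (log2 difference 2.52 ± 0.17, FDR = 2.96e-07), and the lowest midnight value rested on 16 reads. Igfbp3, the main binding protein in blood, had 212 to 263 RPKM (median 232) and 109 to 147 RPKM (median 127) (log2 difference 0.85 ± 0.08, FDR = 4.33e-06), and Txnip, a brake on glucose uptake, had 301 to 359.7 RPKM (median 329.8) and 172 to 209 RPKM (median 184) (log2 difference 0.83 ± 0.07, FDR = 1.26e-06). Both had separate windows. Irs2, an adaptor of the insulin receptor, was called (log2 difference 0.92 ± 0.29, FDR = 0.0224) but lost its call without ZT04 replicate 1 (0.83), ZT06 replicate 2 (0.81) or ZT18 replicate 2 (0.79), without the pools of ZT06, ZT08, ZT18 or ZT20 (0.71, 0.97, 0.82 and 0.91) and with the GC trend removed (0.69). Depp1, a gene outside the list, had 5.34 to 12.2 RPKM (median 9.14) at midday and 1.39 to 3.46 RPKM (median 3.06) at midnight without overlap (log2 difference 1.69 ± 0.26, FDR = 0.000249). G6pc and Pck1, enzymes of gluconeogenesis given below, were higher at midnight. Whether FOXO activity differed between the windows was not tested.

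The other genes that rose most at midday were of varied function. Cyp24a1, the enzyme that breaks down active vitamin D (chr2:170482708-170497145, minus strand), had 46.9 to 118 RPKM (median 74.6) at midday and 11.8 to 37.0 RPKM (median 18.2) at midnight. It was 3.83-fold higher at midday with separate windows (log2 difference 1.94 ± 0.26, FDR = 0.000105). Tmem86a, a lysoplasmalogenase, had 16.9 to 30.1 RPKM (median 28.4) and 8.18 to 12.5 RPKM (median 9.54), also without overlap (log2 difference 1.39 ± 0.14, FDR = 9.13e-06). Rasd1, a small G protein induced by dexamethasone, was low at 1.76 to 4.61 RPKM (median 3.71) and 0.346 to 1.73 RPKM (median 1.19) (log2 difference 1.62 ± 0.30, FDR = 0.000999), and its lowest midnight value rested on 3 reads. Neil2, a DNA glycosylase, had 2.14 to 2.63 RPKM (median 2.45) and 0.393 to 1.63 RPKM (median 0.875) (log2 difference 1.45 ± 0.24, FDR = 0.000444). Amdhd1, an enzyme of histidine breakdown, had 1.79 to 2.71 RPKM (median 2.31) and 0.297 to 1.43 RPKM (median 0.900) (log2 difference 1.42 ± 0.25, FDR = 0.000594), with 4 reads behind the lowest midnight value. None of these windows overlapped, but the last 3 genes stood near the lower end of the tested range.

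Cfd, the adipocyte product adipsin, was among the genes most raised at midday, with 8.61 to 38.8 RPKM (median 15.6) at midday and 1.83 to 6.66 RPKM (median 3.48) at midnight (log2 difference 2.20 ± 0.37, FDR = 0.000469). It is a marker of fat cells, and the other 2 tested markers of perirenal fat moved with it. Adipoq, the hormone adiponectin, had 0.299 to 3.98 RPKM (median 1.76) and 0.128 to 0.958 RPKM (median 0.340) (log2 difference 1.87 ± 0.51, FDR = 0.0106) and lost its call without the ZT06 pools (1.55). Cidec, a lipid droplet protein, had 0.373 to 2.98 RPKM (median 1.496) and 0.199 to 0.794 RPKM (median 0.536) (log2 difference 1.22 ± 0.39, FDR = 0.0244) and lost its call without any 1 of 4 libraries, for example ZT04 replicate 1 (0.99), or without the pools of ZT04, ZT06, ZT16 or ZT20. All 3 tested adipocyte markers were thus higher at midday, and the summed level of the 4 markers in the tables ran from 10.4 to 47.9 RPKM at midday and from 2.36 to 8.31 RPKM at midnight. The part of adhering fat in these and other differences was not tested.

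Defining markers of kidney cell types were present. Lrp2, the megalin receptor of the proximal tubule, had 1096 to 1274 RPKM (median 1221) and 1093 to 1496 RPKM (median 1330.2) (log2 difference -0.10 ± 0.08, FDR = 0.365), and Slc12a3, the thiazide-sensitive cotransporter of the distal convoluted tubule, 233 to 320.3 RPKM (median 309) and 255 to 327 RPKM (median 299) (log2 difference 0.02 ± 0.08, FDR = 0.906). Neither was called. Umod, the uromodulin of the thick ascending limb, was slightly higher at midnight (log2 difference -0.26 ± 0.06, FDR = 0.00692). Of the 10 proximal tubule markers 0 were higher at midday and 3 at midnight (0 and 4 with the GC trend removed). Podocyte markers leaned towards midday, with 4 of 6 higher at midday and none at midnight (2 and 0 with the GC trend removed). So did fibroblast and mural cell markers, with 5 and 1 of 8 (4 and 1), while endothelial markers went both ways, with 4 and 2 of 7 (4 and 2). In the same order, the counts without replicate 1 were 0 and 0, 1 and 0, and 0 and 0. Without replicate 2 they were 5 and 0, 4 and 0, and 2 and 1, and with relative depth as a covariate 2 and 0, 3 and 1, and 3 and 2. The podocyte marker Synpo (log2 difference 0.53 ± 0.14, FDR = 0.00705) and the collagens Col1a1 (log2 difference 0.95 ± 0.13, FDR = 0.000115) and Col3a1 (log2 difference 0.71 ± 0.14, FDR = 0.00140) were among the members that rose at midday. Nphs1 and Wt1, 2 further podocyte markers, were no longer called once the GC trend was removed (0.18 and 0.17). None of the listed markers of adrenal cortex or skeletal muscle was in the tables, and none of the 4 tested red blood cell markers was called.

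Corticosteroids, which in mice peak near the onset of darkness, act on the kidney through the glucocorticoid and mineralocorticoid receptors. Of 22 tested genes known to respond to them, 5 were higher at midday and 6 at midnight (3 and 6 with the GC trend removed), so the list had no common side. Tsc22d3, also called GILZ and induced by glucocorticoids, had 21.2 to 41.2 RPKM (median 25.6) at midday and 69.8 to 106 RPKM (median 85.2) at midnight, 3.05-fold higher at midnight without overlap (log2 difference -1.61 ± 0.15, FDR = 7.98e-06). Sgk1, the kinase that raises sodium uptake, had 29.5 to 39.1 RPKM (median 31.4) and 53.8 to 117 RPKM (median 66.3), likewise separate (log2 difference -1.11 ± 0.15, FDR = 0.000104). The metallothioneins, which bind zinc and copper, were higher at midday. Mt2 had 51.6 to 95.7 RPKM (median 84.6) and 30.9 to 43.4 RPKM (median 38.3) (log2 difference 1.01 ± 0.15, FDR = 0.000178), and Mt1 had 106 to 291 RPKM (median 251) and 94.2 to 137 RPKM (median 118) (log2 difference 0.94 ± 0.19, FDR = 0.00176), the latter with overlap. Of 23 immediate early genes, which respond within minutes to stimuli, 5 were higher at midday and 3 at midnight (3 and 4 with the GC trend removed). The first of these pairs was near the 19.3% and 15.2% of all genes tested. Egr1, a zinc finger factor, was higher at midday, with 1.77 to 8.79 RPKM (median 3.19) and 0.831 to 2.60 RPKM (median 1.09) (log2 difference 1.39 ± 0.34, FDR = 0.00609), as were Maff (log2 difference 0.78 ± 0.21, FDR = 0.00891) and Junb (log2 difference 0.66 ± 0.14, FDR = 0.00205), 2 bZIP factors, whereas Ier3, a regulator of cell survival, was higher at midnight (log2 difference -0.96 ± 0.17, FDR = 0.000718).

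Nat8f5, an acetyltransferase family member (chr6:85817218-85820972, minus strand), had 14.8 to 45.2 RPKM (median 27.1) at midday and 82.5 to 136 RPKM (median 115) at midnight. The difference was 4.26-fold without overlap (log2 difference -2.09 ± 0.21, FDR = 1.06e-05), and since the Nat8 family has close paralogs, its share of reads is uncertain. Acnat2, which links fatty acids to amino acids, had 21.9 to 38.3 RPKM (median 32.2) and 58.2 to 100.3 RPKM (median 77.5) (log2 difference -1.28 ± 0.15, FDR = 2.97e-05). The detoxification enzymes as a list leaned the same way, with 4 of 45 higher at midday and 18 at midnight (2 and 13 with the GC trend removed, 3 and 9 with relative depth as a covariate). Over all genes tested the shares were 19.3% and 15.2% (13.6% and 16% with the GC trend removed). The list gave 0 and 3 without replicate 1, and 1 and 14 without replicate 2. Sult1d1, a sulfotransferase, had 441 to 712 RPKM (median 526) and 894 to 1007 RPKM (median 928) (log2 difference -0.81 ± 0.09, FDR = 1.82e-05), and Ces1d, a carboxylesterase, had 166 to 224 RPKM (median 204) and 329 to 364 RPKM (median 337) (log2 difference -0.77 ± 0.07, FDR = 2.97e-06), both with separate windows. Aldh1a1, a retinal dehydrogenase, was also higher at midnight (log2 difference -0.66 ± 0.16, FDR = 0.00554). Cyp1b1, a cytochrome P450 of steroid and xenobiotic metabolism, went the other way (log2 difference 0.59 ± 0.08, FDR = 0.000104).

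**Figure D4:**
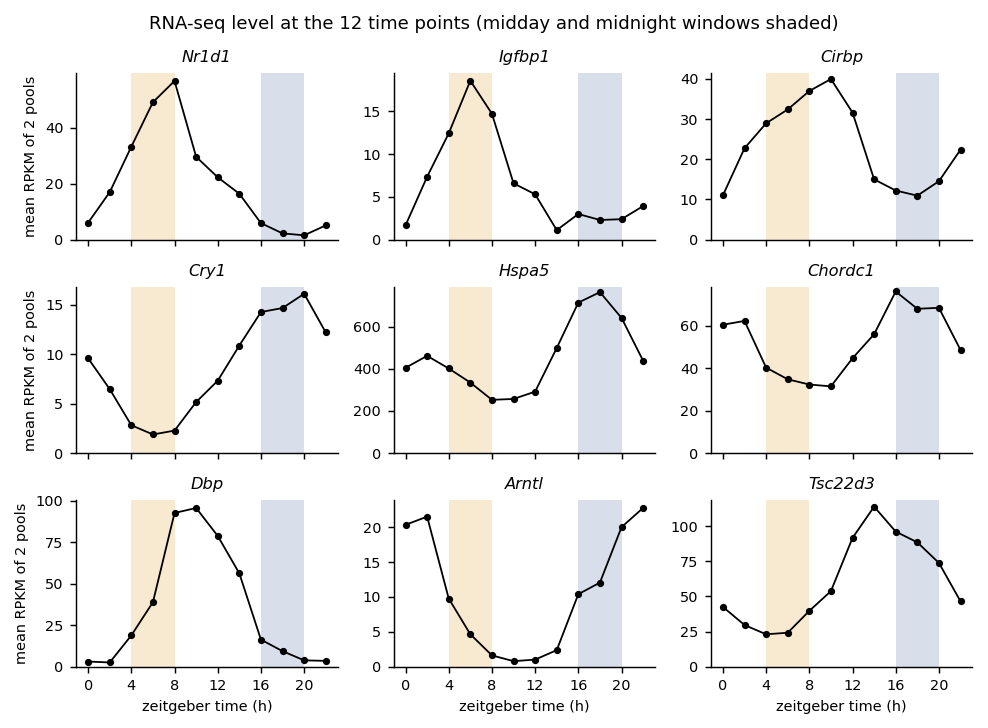
Mean RPKM of the 2 pools (y axis) at the 12 time points (x axis, zeitgeber time in hours) for 9 genes, with the midday window shaded orange and the midnight window blue. Nr1d1 and Igfbp1 have their highest mean inside the midday window and Cry1, Hspa5 and Chordc1 inside the midnight window, while Dbp and Cirbp are highest at ZT10, Tsc22d3 at ZT14 and Arntl at ZT22, between the windows.

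Among 28 genes listed for the sodium channel, cotransporters and their kinases 4 were higher at midday and 6 at midnight (2 and 7 with the GC trend removed). Sgk1 apart, the widest differences were in Slc12a7, a potassium-chloride cotransporter, higher at midday (log2 difference 0.51 ± 0.08, FDR = 0.000305), and in Kcnj1, the potassium channel ROMK, higher at midnight (log2 difference -0.40 ± 0.08, FDR = 0.00171). Atp1b1, the beta subunit of the sodium pump, was higher at midday (log2 difference 0.33 ± 0.09, FDR = 0.00932), a call lost without the pools of ZT08 (0.30) or ZT20 (0.23). Of 13 water channel and vasopressin genes 1 was higher at midday and 5 at midnight (1 and 7). Aqp2, the water channel that vasopressin moves to the surface of the collecting duct, had 80.2 to 148 RPKM (median 114) and 122 to 202 RPKM (median 153) (log2 difference -0.46 ± 0.13, FDR = 0.0121), with overlap, and was not called without the ZT16 pools (-0.34). Aqp6, an intracellular channel of intercalated cells, was higher at midday (log2 difference 0.50 ± 0.11, FDR = 0.00274). In the list for calcium, magnesium and phosphate 5 of 25 were higher at midday and 3 at midnight (5 and 4). Next to Cyp24a1 these included Slc20a2, a phosphate carrier (log2 difference 0.40 ± 0.06, FDR = 0.000210), and Fgfr1, a receptor for FGF23 (log2 difference 0.30 ± 0.06, FDR = 0.00201). For acid-base transport the counts were 3 and 2 of 20 (2 and 5), with Slc9a3, the sodium-proton exchanger of the proximal tubule, higher at midday (log2 difference 0.38 ± 0.07, FDR = 0.000805) and Pck1, an enzyme of gluconeogenesis tied to ammonia production, at midnight (log2 difference -0.68 ± 0.15, FDR = 0.00326).

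Slc6a19, the main carrier for neutral amino acids of the brush border, had 256 to 323 RPKM (median 282) at midday and 135 to 154 RPKM (median 144) at midnight, 1.98-fold higher at midday without overlap (log2 difference 0.99 ± 0.06, FDR = 1.48e-07). The amino acid transporters as a list had 3 of 26 members higher at midday and 7 at midnight (2 and 7 with the GC trend removed). Slc38a2, a carrier induced by amino acid shortage, was among those higher at midnight (log2 difference -0.46 ± 0.11, FDR = 0.00624). In glucose handling 5 of 19 genes were higher at midday and 3 at midnight (3 and 5), against 19.3% and 15.2% of all genes tested. G6pc, the last enzyme of glucose release, was higher at midnight, with 260.5 to 330.3 RPKM (median 287) and 397 to 521 RPKM (median 495) and no overlap (log2 difference -0.71 ± 0.08, FDR = 1.82e-05), on the same side as Pck1. Slc5a10, a sodium-coupled sugar carrier, was higher at midday (log2 difference 0.28 ± 0.06, FDR = 0.00164). Organic ion and drug transporters gave 4 and 5 of 23, and 0 and 8 once the GC trend was removed. Slco4c1, an organic anion carrier (log2 difference -0.55 ± 0.07, FDR = 0.000108), and Slco1a6, another of that family (log2 difference -0.53 ± 0.11, FDR = 0.00157), were higher at midnight.

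In lipid metabolism the 24 genes of cholesterol synthesis had 3 members higher at midday and 7 at midnight (2 and 8 with the GC trend removed). Dhcr7, the last enzyme of the pathway, was higher at midday (log2 difference 0.44 ± 0.08, FDR = 0.000869). Of 20 genes of fatty acid synthesis 4 and 6 were called (3 and 8). Srebf1, the master regulator of that pathway (log2 difference -0.52 ± 0.11, FDR = 0.00195), and Scd2, a desaturase (log2 difference -0.60 ± 0.10, FDR = 0.000368), were higher at midnight, whereas Mlxipl, the glucose sensor ChREBP, was higher at midday (log2 difference 0.47 ± 0.09, FDR = 0.000874). Fatty acid oxidation and PPAR alpha targets gave 6 and 5 of 42 (3 and 7). Cpt1a, the gate for fatty acid entry into mitochondria (log2 difference 0.38 ± 0.07, FDR = 0.000700), Acadl, a dehydrogenase of the pathway (log2 difference 0.33 ± 0.06, FDR = 0.000615), and Plin5, a lipid droplet coat (log2 difference 0.68 ± 0.14, FDR = 0.00194), were higher at midday. Cd36, a fatty acid transporter, was higher at midnight (log2 difference -0.37 ± 0.11, FDR = 0.0191), but was not called with the GC trend removed (-0.14) or without the pools of ZT06, ZT08, ZT18 or ZT20 (-0.37, -0.30, -0.28 and -0.28).

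Nampt, the rate-limiting enzyme of NAD salvage and a clock target, had 103 to 128 RPKM (median 109) at midday and 163 to 197 RPKM (median 182) at midnight, without overlap (log2 difference -0.67 ± 0.07, FDR = 1.06e-05). The NAD list gave 5 and 5 of 20 (2 and 5 with the GC trend removed), and 2 enzymes that make NAD from other precursors, Qprt (log2 difference 0.49 ± 0.07, FDR = 9.98e-05) and Naprt (log2 difference 0.38 ± 0.07, FDR = 0.00134), were higher at midday. For polyamine, creatine and arginine metabolism 1 and 3 of 20 genes were called (2 and 6). Amd1, an enzyme of polyamine synthesis, was higher at midnight (log2 difference -0.61 ± 0.07, FDR = 1.9e-05), as were Sat1, which acetylates polyamines (log2 difference -0.39 ± 0.08, FDR = 0.00150), and Oat, which uses ornithine (log2 difference -0.28 ± 0.06, FDR = 0.00181). Among 21 iron and heme genes 2 were higher at midday and 4 at midnight (3 and 6). Fth1, the ferritin heavy chain that stores iron, was higher at midday (log2 difference 0.53 ± 0.08, FDR = 0.000189), and Tfrc, the receptor for iron uptake, at midnight (log2 difference -0.60 ± 0.13, FDR = 0.00307), together with Hmox1, which breaks down heme (log2 difference -0.57 ± 0.14, FDR = 0.00496), and Alas1, which starts its synthesis (log2 difference -0.54 ± 0.13, FDR = 0.00545).

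The 12 tested genes encoded in mitochondrial DNA had 8 members higher at midnight and none at midday, with the midnight mean above the midday mean in all 12 (median log2 difference -0.50). The count depended on the processing. Quantile normalisation left 1 and 2, and removal of the GC trend left 0 and 1, these genes having a median coding GC content of 36.7% against 52.9% over all genes. In footprints 0 were higher at midday and 2 at midnight. mt-Nd3, a subunit of complex I, had 5026 to 6533 RPKM (median 5952) at midday and 10168 to 16996 RPKM (median 13824) at midnight, without overlap (log2 difference -1.16 ± 0.12, FDR = 1.06e-05), and was the member still called with the GC trend removed (-0.71). mt-Atp6 (log2 difference -0.75 ± 0.17, FDR = 0.00323) and mt-Atp8 (log2 difference -0.86 ± 0.20, FDR = 0.00446), of the ATP synthase, were not (-0.37 and -0.39). The nuclear subunits of the respiratory chain gave 5 and 27 of 75, and 2 and 37 without the GC trend, but 7 and 12 with quantile normalisation and 1 and 10 with relative depth as a covariate. Cox7c, of complex IV (log2 difference -0.55 ± 0.11, FDR = 0.00146), and Atp5g2, of the ATP synthase (log2 difference -0.46 ± 0.08, FDR = 0.000486), were higher at midnight.

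Of 80 genes for proteins of the cytosolic ribosome 2 were higher at midday and 15 at midnight, 0 and 26 with the GC trend removed and 6 and 6 with quantile normalisation, and of 73 for the mitochondrial ribosome 6 and 10 (1 and 21 with the GC trend removed, 7 and 8 with quantile normalisation). The median log2 differences were -0.07 and -0.05. In footprints, 54 of the 80 were higher at midnight and none at midday, with a median of -0.40. Rpl39 (log2 difference -0.52 ± 0.09, FDR = 0.000362) and Rps13 (log2 difference -0.43 ± 0.07, FDR = 0.000532) were higher at midnight, as was Mrps36 (log2 difference -0.64 ± 0.09, FDR = 9.01e-05). Many ribosomal protein genes have processed pseudogenes that can take up reads, so single members are uncertain. Among 36 proteasome subunits 6 were higher at midday and 14 at midnight, 1 and 10 with the GC trend removed, 8 and 9 with quantile normalisation and 3 and 1 with the depth covariate. Psmb9 (log2 difference 0.45 ± 0.12, FDR = 0.00886), Psmb10 (log2 difference 0.41 ± 0.11, FDR = 0.00983) and Psmb8 (log2 difference 0.35 ± 0.10, FDR = 0.0170), the 3 catalytic subunits of the immunoproteasome, were higher at midday, but none of them was called with the GC trend removed (0.29, 0.21 and 0.20), and Psmb8 was lost without the pools of ZT04 (0.27) or ZT16 (0.26). Psmd5, an assembly factor, was higher at midnight (log2 difference -0.37 ± 0.06, FDR = 0.000466). Translation factors gave 10 and 15 of 64 (9 and 14). Eif4ebp2, an inhibitor of cap-dependent initiation, had 67.9 to 104 RPKM (median 95.2) and 44.7 to 67.2 RPKM (median 57.4) (log2 difference 0.70 ± 0.11, FDR = 0.000241), and Eif1a, a scanning factor, was higher at midnight (log2 difference -0.58 ± 0.10, FDR = 0.000567).

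Aminoacyl-tRNA synthetases gave 2 and 3 of 20 (2 and 3 with the GC trend removed), mitochondrial carriers 4 and 7 of 38 (3 and 11) and Zfp zinc finger genes 37 and 50 of 265 (28 and 39), the last turning to 22 and 67 with quantile normalisation. Atf4, the stress factor itself, was higher at midnight, with 49.2 to 64.4 RPKM (median 58.2) and 81.1 to 94.8 RPKM (median 89.3) and no overlap (log2 difference -0.65 ± 0.07, FDR = 1.06e-05), while the list of 21 that holds it, its targets and amino acid enzymes gave 2 and 5 (0 and 6). Of 31 cell cycle and DNA repair genes 8 were higher at midday and 2 at midnight (4 and 2). Wee1, a kinase that restrains mitosis and a clock target, was higher at midnight (log2 difference -0.72 ± 0.12, FDR = 0.000492). Ccnd2, a cyclin (log2 difference 0.78 ± 0.15, FDR = 0.00105), Ogg1, which excises oxidised guanine (log2 difference 0.56 ± 0.09, FDR = 0.000394), and Xpa, a factor of nucleotide excision repair (log2 difference 0.47 ± 0.10, FDR = 0.00232), were higher at midday.

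Inflammation and interferon genes gave 8 and 2 of 24 (4 and 2 with the GC trend removed and 5 and 4 with quantile normalisation), and the interferon-induced Isg15 (log2 difference 0.86 ± 0.21, FDR = 0.00505) and Oasl2 (log2 difference 0.46 ± 0.11, FDR = 0.00617) were higher at midday. Actin and SRF target genes gave 6 and 0 of 24 (3 and 1). Myh9, a nonmuscle myosin (log2 difference 0.47 ± 0.06, FDR = 0.000100), and Actn4, an actin crosslinker of podocytes (log2 difference 0.43 ± 0.06, FDR = 0.000108), were higher at midday. Factors of the poly(A) tail, mRNA decay and RNA modification gave 5 and 4 of 23 (7 and 3). Over all genes tested the shares were 19.3% and 15.2% (13.6% and 16%). Pabpc1, the poly(A)-binding protein, had 162 to 178 RPKM (median 175) and 112 to 144 RPKM (median 118) without overlap (log2 difference 0.48 ± 0.07, FDR = 0.000150), and the m6A demethylase Fto was higher at midday as well (log2 difference 0.37 ± 0.05, FDR = 0.000154). The second demethylase, Alkbh5 (log2 difference 0.32 ± 0.06, FDR = 0.00135), was not called with the GC trend removed (0.09). Renin-angiotensin, endothelin and natriuretic genes gave 5 and 3 of 24 (3 and 1), among them Ece1, which makes endothelin, higher at midday (log2 difference 0.34 ± 0.05, FDR = 0.000206) and Atp6ap2, the prorenin receptor, higher at midnight (log2 difference -0.44 ± 0.07, FDR = 0.000341).

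**Figure D5:**
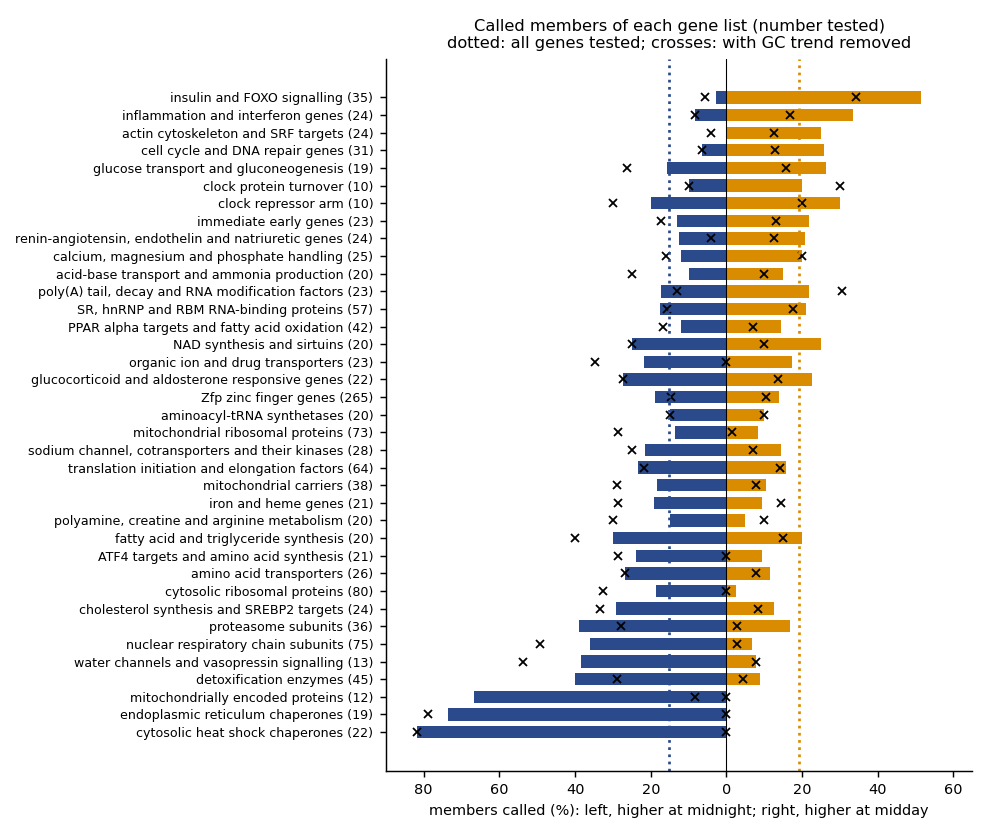
Percent of members called (x axis) in each gene list with at least 10 tested genes (y axis, number tested in brackets) as higher at midnight (blue, left) or at midday (orange, right), with dotted lines at the share over all genes tested (15.2% and 19.3%) and crosses for the counts after removal of the GC trend. The 2 chaperone lists and the mitochondrially encoded genes extend furthest to the left, with no member on the right, and insulin and FOXO signalling furthest to the right.

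The footprints of the same pools were set beside the RNA differences. They come from the same animals, so they are a second measurement of the pools and not an independent experiment. Of the 355 genes at least 1.5-fold higher at midday, 143 (40.3%) were also called higher at midday in footprints and none lower, with a median log2 difference of 0.40 in footprints against 0.72 in RNA. For the 163 genes from midnight it was 87 (53.4%) and none, with medians of -0.49 and -0.70. Over all genes tested, 7.31% were higher at midday in footprints and 6.12% at midnight. The 355 and 163 genes were picked by their RNA difference, which by itself favours larger medians in RNA than in footprints. Nr1d1 (3.82 ± 0.38), Cry1 (-2.91 ± 0.14), Igfbp1 (2.45 ± 0.21) and Hspa5 (-0.95 ± 0.15) had footprint log2 differences close to those in RNA. A test of the ratio of footprints to RNA within each pool gave 589 genes with a higher ratio at midday and 629 at midnight, but 122 and 226 once the GC trend was removed. Without 1 replicate series this test called 0 genes. Rasd1 differed in RNA (1.62 ± 0.30) and less in footprints (0.23 ± 0.22), and its ratio differed (FDR = 0.0141, or 0.0277 with the GC trend removed). Rasd1 was named for its large RNA difference, which also enters the ratio, and its lowest midnight RNA value rested on 3 reads. Hlf, higher at midnight in RNA (-0.47 ± 0.13) but not in footprints (-0.04 ± 0.11), also had a ratio that differed (FDR = 0.0212, or 0.0155 with the GC trend removed).

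The 2 windows leave out dawn and dusk, and the remaining 12 RNA-seq libraries show what a contrast of midday and midnight misses. Of the 355 genes at least 1.5-fold higher at midday, 260 had the highest of their 12 time point means inside the midday window (73.2%), 56 at dusk (ZT10, ZT12, ZT14) and 39 at dawn (ZT22, ZT00, ZT02). Of the 163 genes from midnight it was 132 inside the midnight window (81.0%), 17 at dusk and 14 at dawn. These counts describe genes picked by the contrast, which by itself favours peaks inside the windows. Arntl and Nfil3 were highest at dawn, with means of 21.6 and 18.1 RPKM against 1.37 and 3.51 at dusk, and Dbp and Nr1d2 at dusk, with 76.9 and 82.8 against 2.96 and 22.2 at dawn. For such genes the difference between midday and midnight catches only part of the daily swing.

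At the threshold itself, Nmnat3, an enzyme of mitochondrial NAD synthesis, was the last gene called as higher at midday (FDR = 0.04996), and Qsox1, an enzyme that forms disulfide bonds, the first one left out (FDR = 0.05029). Their log2 differences were 0.29 ± 0.11 and 0.23 ± 0.09. On the midnight side these were Atg5, an autophagy factor (FDR = 0.04996), and Tmem150a, a membrane protein (FDR = 0.05005), with -0.30 ± 0.11 and -0.25 ± 0.09. Neither call held with the GC trend removed (0.15 and -0.15), and they were lost on leaving out any of 8 and any of 9 single libraries.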

How the data were processed

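Kidney RNA-seq and ribosome footprints were measured in the same pools. Per the labels and the study's methods, the authors trimmed reads with cutadapt, aligned them with Bowtie2 2.2.1 and TopHat2 2.0.11 to the GRCm38.p2 mouse genome, and deposited RPKM values over coding sequences, scaled with the upper quantile method of edgeR. Those RPKM values were used here as deposited.

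Values were taken to log2(RPKM + 0.1) and genes with a median of at least 0.5 RPKM in both assays kept. The 6 midday and 6 midnight libraries were compared with limma 3.58.1 in R 4.3.3 (moderated test with a variance trend, two-sided, Benjamini-Hochberg adjustment over all genes tested), without a replicate term. The ± values are standard errors. The footprints and the footprint to RNA ratio within each pool were fitted the same way. Relative depth was recovered from the steps between low RPKM values. The trend on coding GC content was removed from each library as an alternative chosen after seeing the data. Gene coordinates come from GENCODE mouse release 21, and promoters from RefSeq (GRCm38.p6). The code was tested on simulated data, and tables were handled with Python 3.11.15, numpy 2.4.6 and pandas 2.3.3.

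Named genes are the clock genes, in each direction the 12 genes with the largest differences among those called, at least 1.5-fold apart and without overlap between the windows, up to 4 called members of each gene list, those at the threshold and selected markers. A few genes that this rule picks are not reported here. Members and lists were chosen with earlier results of these data known. Replicate numbers did not pair the samples: over 15 pairs of time points the deviations of libraries with the same number correlated by 0.0062 on average (-0.14 to 0.23). The effect of leaving out libraries, other scalings, filters and pseudocounts is given in the closing section.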

Additional observations from a re-analysis of the deposited data

Results flagged for a closer look

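In 16 of 364 groups of 6 libraries of named genes, 1 library lay apart from the other 5 by more than Dixon's 95% limit. Chance alone gives such a gap in about 1 in 20 groups.

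Of these, 7 were the ZT04 replicate 2 library, the one whose values leaned away from GC-rich genes. They were Mt1 (106 RPKM), Slco1a6 (204 RPKM), Mlxipl (17.5 RPKM), Asl (196 RPKM), Srsf10 (43.8 RPKM), Slc25a14 (5.52 RPKM) and Slc12a3 (233 RPKM). Whether that lean bears on these values was not tested.

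The ZT04 replicate 1 library stood apart for Tmem86a (16.9 RPKM) and Psmb10 (23.9 RPKM). ZT06 replicate 1 did so for Npr2 (8.54 RPKM) and ZT06 replicate 2 for Kynu (1.81 RPKM). ZT08 replicate 1 was apart for Sgk1 (39.1 RPKM) and Rpl39 (418 RPKM), and ZT08 replicate 2 for Acnat2 (21.9 RPKM). At midnight the ZT20 replicate 1 library stood apart for Thrsp (1.72 RPKM) and Slc25a14 (8.197 RPKM).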

How the results depend on the processing

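Counts are genes higher at midday or midnight. Averaging each time point first gave 1238 and 837, a depth covariate 1398 and 1046, and an FDR under 0.01 gave 1293 and 946. At midday, removing the GC trend with a replicate block left 1515, with time points as a random block 1045, and without ZT04 replicate 2 1412. Genes at least 1.5-fold higher at midday numbered 189 with a pseudocount of 1, 225 with a minimum of 2 RPKM, 236 with quantile normalisation, 203 with the GC trend removed, and 200, 164 and 199 when that was combined with the replicate block, the random block or the loss of ZT04 replicate 2. A replicate block alone gave 2189 and 1732, or 353 and 162 at 1.5-fold, and ended 5 of the 169 calls of named genes.

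With 1 replicate series left out, midday counts were 223 to 1296 and midnight counts 125 to 1090 (160 to 399 and 82 to 186 at 1.5-fold). Leaving out 1 library gave 1927 to 2628 and 1479 to 2230 (325 to 442 and 150 to 201), and leaving out 1 time point 1430 to 2478 and 1057 to 2248 (290 to 478 and 144 to 246). Footprint counts were 25 to 171 and 20 to 187 without 1 series, and with the GC trend removed 1125 genes were higher at midnight. The limma test of the ratio called 0 genes in either direction without 1 series, where 1683 and 2087 had an unadjusted p under 0.05, and 122 and 226 with the GC trend removed. The log2 depth difference was 0.55 to 0.56 without 1 series.

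Of the 169 named genes called, none reversed in 37 alternatives, 153 stayed called whichever single library was left out, and 137 with the GC trend removed. The fewest were kept without replicate 1 (50), with the GC trend removed and time points as a random block (112), with the depth covariate (119) and without replicate 2 (120). Averaging each time point first kept 135, and time points as a random block alone kept 149. Midnight libraries were shallower, which limits low genes there.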
